A study of Homo sapiens with 14 samples.

Results

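The metallothionein genes described here are 7 protein-coding genes taken by name, MT1A, MT1E, MT1F, MT1G, MT1M, MT1X and MT2A, out of the 54628 gene symbols counted in every library. RNA was sequenced from IMR90, an established strain of human lung fibroblasts, in 14 libraries that form 7 groups of 2. WT cells carried no knockdown and received no treatment, and siHMGB2 cells were untreated cells in which HMGB2 was knocked down with siRNA. The other 10 libraries came from cells exposed to 10 µM inflachromene (ICM), a small molecule known to target HMGB proteins, for up to 6 days to bring on senescence. Of these, 4 libraries had no knockdown (ICM replicates 1 to 4), and 2 libraries each are labelled as a knockdown of SRRM2, BANF1 or CTCF on top of the treatment (siSRRM2, siBANF1 and siCTCF). The names of the deposited files exchange siSRRM2 and siBANF1 relative to the sample labels, and the labels are followed here. No group treated with a control siRNA or with solvent alone was used here, so each knockdown is set against cells without siRNA. All cells were at passage 5 and came from the isolates I79 and I83, and the labels do not say which isolate gave which library. For ICM 3, ICM 4 and both siCTCF libraries the cell line field reads IMR91 to IMR94 while the title reads IMR90, and these 4 libraries were kept as a second set, the other 6 treated libraries being the first. ICM 1 and 2 (ICM 1-2) were therefore handled apart from ICM 3 and 4 (ICM 3-4). No WT library belongs to the second set, and ICM treatment and set cannot be told apart in the comparison of ICM 3-4 with WT. The libraries of ICM 1-2 also differed from WT in make-up, as described below. Treatment and these library differences cannot be told apart in that comparison either.

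Metallothioneins are small intracellular proteins in which cysteines make up an unusually large part of the chain and hold zinc, copper or cadmium through their sulfur atoms. Their genes are switched on by MTF1, a zinc-finger transcription factor that senses free zinc and binds short metal response elements near the start of the metallothionein genes and of SLC30A1, which encodes the zinc exporter ZnT1 of the plasma membrane. MT2A, the main metallothionein of most cell types, is also known to respond to glucocorticoids and to oxidative stress.

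The coding sequences of the 3 members that carried nearly all of the counts are shown because the family differs by few bases, which bears on how reads can be assigned. They are from the GENCODE models on the GRCh38 build, with every cysteine codon in capitals.

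MT2A: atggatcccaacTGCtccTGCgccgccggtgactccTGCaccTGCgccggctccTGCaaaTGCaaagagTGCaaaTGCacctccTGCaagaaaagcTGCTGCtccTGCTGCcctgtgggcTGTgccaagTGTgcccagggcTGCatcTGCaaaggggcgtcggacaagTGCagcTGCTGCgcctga

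MT1E: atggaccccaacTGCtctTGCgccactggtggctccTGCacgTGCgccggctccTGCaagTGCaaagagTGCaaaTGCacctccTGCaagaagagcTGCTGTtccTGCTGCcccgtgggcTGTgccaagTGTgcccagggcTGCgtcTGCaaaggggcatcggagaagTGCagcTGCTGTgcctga

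MT1X: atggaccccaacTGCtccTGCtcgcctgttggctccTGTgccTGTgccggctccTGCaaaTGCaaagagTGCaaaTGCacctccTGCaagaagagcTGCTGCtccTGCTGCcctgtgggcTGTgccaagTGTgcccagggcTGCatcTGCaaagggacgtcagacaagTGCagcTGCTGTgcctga

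All 7 members have a coding sequence of 186 bases, that is 61 codons and a stop, with 20 cysteine codons at 20 shared positions (32.8% of the codons). Identity between the coding sequences ranged from 88.7% for MT1F with MT1X to 95.2% for MT1G with MT2A. MT1E and MT2A differed at 14 bases, as did MT1X and MT2A, and MT1E and MT1X differed at 17. Whole transcripts were compared as well. Of all stretches of 50 bases in the MT2A transcript, 4.88% also occur in another gene, against 5.34% for MT1E, and 45.1% for MT1X, or 15.96% once AC026461.1, an RNA annotated across the same locus, is set aside. Reads from these shared stretches could go to the wrong member or be dropped, so the levels of MT1X in particular are uncertain to that extent.

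The genes lie in a row on chromosome 16 (GRCh38), within 75613 bases from the start of MT2A to the end of MT1X. MT2A covers chr16:56608584-56609497 and MT1E chr16:56625781-56627112, both on the plus strand. Between them, at chr16:56617461-56618818 on the same strand, lies MT1L, a transcribed pseudogene. MT1M (chr16:56632659-56633981), MT1A (chr16:56638666-56640087), MT1F (chr16:56657959-56659303), MT1G on the minus strand (chr16:56666730-56668065) and MT1X (chr16:56682470-56684196) follow. Every member has 3 exons, and no other RefSeq gene overlaps any of them.

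Promoter sequences from RefSeq (GRCh38.p14) were at hand for 2 of the 7 members, MT2A and MT1X. The 250 bases before the transcript start are shown for both, on the plus strand, with each metal response element core in capitals, since these elements are how MTF1 is known to reach the genes. The core was searched as TGCACNC or TGCGCNC on both strands.

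MT2A promoter, chr16:56608334-56608583: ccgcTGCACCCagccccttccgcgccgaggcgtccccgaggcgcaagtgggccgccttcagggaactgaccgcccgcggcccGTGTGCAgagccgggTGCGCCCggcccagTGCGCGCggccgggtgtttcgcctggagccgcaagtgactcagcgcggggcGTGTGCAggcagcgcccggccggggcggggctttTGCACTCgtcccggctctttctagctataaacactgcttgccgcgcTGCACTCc

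MT1X promoter, chr16:56682220-56682469: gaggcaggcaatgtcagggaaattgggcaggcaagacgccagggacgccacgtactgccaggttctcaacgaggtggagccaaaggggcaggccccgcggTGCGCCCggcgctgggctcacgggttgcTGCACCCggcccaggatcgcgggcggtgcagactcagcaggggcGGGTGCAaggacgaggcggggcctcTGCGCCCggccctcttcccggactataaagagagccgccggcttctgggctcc

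The MT2A stretch holds 7 cores and an eighth lies just after the start, giving 8 in the full 300-base window. MT1X holds 4 in its window, SLC30A1 holds 2 and MTF1 holds 0. Of the metallothionein genes without a count in any library, MT1H also holds 8, and MT1B and MT4 hold 3 each. Of the 35116 promoters of that length, 29.6% hold at least 1 core, 0.601% hold at least 4 and 0.048% hold at least 7. A core of the antioxidant response element, searched as TGACNNNGC on both strands, occurs once in each of the promoters of MT2A, MT1X and SLC30A1, as it does at least once in 13.3% of all promoters. In MT2A it begins 104 bases before the start. No match overlapped another. These are matches of letters and were not measured as bound sites.

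**Figure D1:**
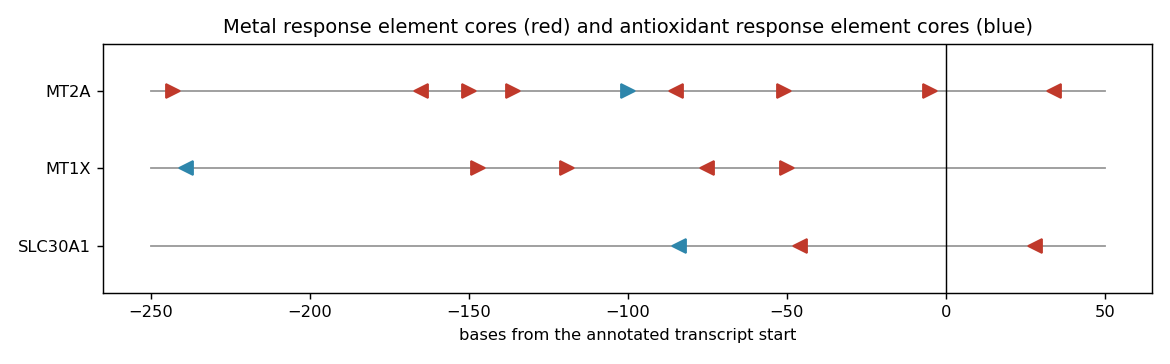
Positions of metal response element cores (red) and antioxidant response element cores (blue) in the promoters of MT2A, MT1X and SLC30A1, with the horizontal axis in bases from the annotated transcript start and the arrowheads pointing along the strand of the match. The 8 metal response element cores of MT2A spread over the whole window, against 4 in MT1X and 2 in SLC30A1.

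Gene counts ranged from 22336161 to 58257456 per library. HMGB2 stood at 27.7 and 28.0 CPM (counts scaled to a library total of 1000000) in WT but 3.18 and 3.52 CPM in siHMGB2, and CTCF at 94.9 and 91.9 CPM in ICM 3-4 but 71.5 and 23.0 CPM in siCTCF. SRRM2 was lowest in the siBANF1-labelled pair (59.0 and 17.0 CPM), below the pair labelled siSRRM2 (76.1 and 76.4 CPM) and ICM 1-2 (238 and 112 CPM). BANF1 was at 17.0 and 36.7 CPM in the siBANF1-labelled pair and 34.2 and 33.3 CPM in the siSRRM2-labelled pair, against 13.5 and 32.7 CPM in ICM 1-2. So BANF1 was below both ICM 1-2 libraries in neither labelled pair, and SRRM2 was lowest in the pair labelled siBANF1. Since the file names also exchange these 2 pairs, which pair received which siRNA was not settled, and each value below for siSRRM2 or siBANF1 belongs to the libraries so labelled. ICM 1 and the first library labelled siBANF1 stood apart from their partners, with 16.3% and 18.4% of reads in no annotated feature against at most 8.87% elsewhere. Small RNA genes took 3.19% to 6.06% of the counts in the 6 libraries of the first treated set and at most 0.0081% in the other 8. Reads matching several places made up 14.5% to 20.7% in these 6 libraries and 7.15% to 8.51% in the other 8. Reads that fell on several genes made up 6.73% to 9.53% in ICM 2, the siSRRM2-labelled pair and siBANF1 2. They made up 4.43% in ICM 1, 2.67% in siBANF1 1 and at most 1.91% in the other 8. All 12 fibroblast markers reached 1 CPM in every library, while no epithelial marker of 8 did. Between 1 and 4 of 6 endothelial markers and 1 or 2 of 6 blood markers reached 1 CPM, depending on the library. Of the endothelial list, TEK ranged from 2.50 to 241 CPM, KDR reached 8.13, VWF 1.63 and CLDN5 1.42 CPM, while PECAM1 and CDH5 stayed at or under 0.135 CPM. Of the blood list, CD68 ranged from 39.1 to 104 CPM and CD14 reached 12.95 CPM, while PTPRC stayed at or under 0.089 CPM and CD3E at 0.

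MT2A, MT1E and MT1X made up at least 99.8% of the counts of the 7 genes in every library. Summed over the 7 members, metallothionein RNA ranged from 508 CPM in WT 2 to 1327 CPM in ICM 2, or 0.0508% to 0.133% of all gene counts. Per kilobase of transcript, MT2A had a mean level of 973 CPM, MT1E 190 and MT1X 42.5, followed by MT1G at 0.812, MT1A at 0.202, MT1F at 0.055 and MT1M at 0.007. MT1G had 8 and 20 counts in WT, 21 and 12 in siHMGB2, 12 and 16 in ICM 3-4 and 17 and 20 in siCTCF, but 0 and 6 in ICM 1-2, 4 and 0 in the siSRRM2 pair and 1 and 6 in the siBANF1 pair. All 6 libraries of the first treated set were thus below the other 8 for MT1G in CPM. This rests on at most 21 counts per library, and 20.17% of the 50-base stretches of MT1G occur in another gene. How many of all genes separate these libraries was not counted, and the part of the library differences above was not tested. MT1A reached 12 counts at most (siBANF1 1) and 46 in all, with none in 4 libraries, and MT1F reached 6 (ICM 2) and 24 in all, with none in 6. MT1M had 3 counts in all, in WT 2 and siHMGB2 2, and none in the other 12 libraries. A count of 0 allows a level of up to 0.0515 to 0.134 CPM, depending on the library, taking 3 counts as the limit and counting error alone. Of the 14 other metallothionein loci, the pseudogene MT1L alone passed 5 CPM in any library, and 7 loci (MT1B, MT1H, MT1HL1, MT1JP, MT1CP, MT1IP and MT4) had no count in any library.

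MT2A was the most abundant member in each library and the least variable of the 3. Its level was 812 and 466 CPM in WT, 538 and 525 CPM in siHMGB2, 544 and 869 CPM in ICM 1-2 and 1109 and 807 CPM in ICM 3-4. It was 822 and 762 CPM in the siSRRM2-labelled pair, 797 and 836 CPM in the pair labelled siBANF1 and 986 and 834 CPM in siCTCF. The highest library was 2.38 times the lowest, and the groups overlapped with their neighbours throughout the order of means, which ran from siHMGB2 (531 ± 9.35 CPM) through WT, ICM 1-2, siSRRM2, siBANF1 and siCTCF to ICM 3-4 (958 ± 214 CPM, mean ± SD, n = 2).

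MT1E had the widest range of the 3, 12.6 times from the lowest to the highest library. It stood at 52.1 and 33.1 CPM in WT, 37.3 and 38.8 CPM in siHMGB2, 113 and 88.8 CPM in ICM 3-4 and 100.3 and 96.6 CPM in siCTCF. In the other groups it was 55.7 and 417 CPM (ICM 1-2), 199 and 202 CPM (libraries labelled siSRRM2), and 46.1 and 388 CPM (libraries labelled siBANF1). So the 4 libraries of the second set sat above all 4 untreated ones, and the first treated set split, with 2 libraries at or near the untreated level and 4 at 199 CPM or more. In the order of means, siHMGB2 and WT overlapped, siCTCF and ICM 3-4 overlapped, and siSRRM2, siBANF1 and ICM 1-2 overlapped with their neighbours among themselves. WT did not overlap with siCTCF next above it, nor ICM 3-4 with siSRRM2. How many of all genes separate these groups was not counted.

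MT1X was lower than MT2A and MT1E in every library, per kilobase of transcript as well. Its level was 12.4 and 8.42 CPM in WT, 15.97 and 11.8 CPM in siHMGB2, 10.4 and 40.8 CPM in ICM 1-2 and 23.4 and 21.2 CPM in ICM 3-4. It was 17.4 and 18.3 CPM in the siSRRM2-labelled pair, 9.89 and 35.0 CPM in the pair labelled siBANF1 and 19.3 and 23.8 CPM in siCTCF. The lowest and the highest treated library for MT1X were siBANF1 1 and ICM 2. By mean, WT and siHMGB2 came lowest and overlapped, and siSRRM2 lay above siHMGB2 and siCTCF above siSRRM2 without overlap. ICM 3-4, siBANF1 and ICM 1-2 followed, each overlapping with the one below. The number of all genes that separate these groups was not counted here either.

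**Figure D2:**
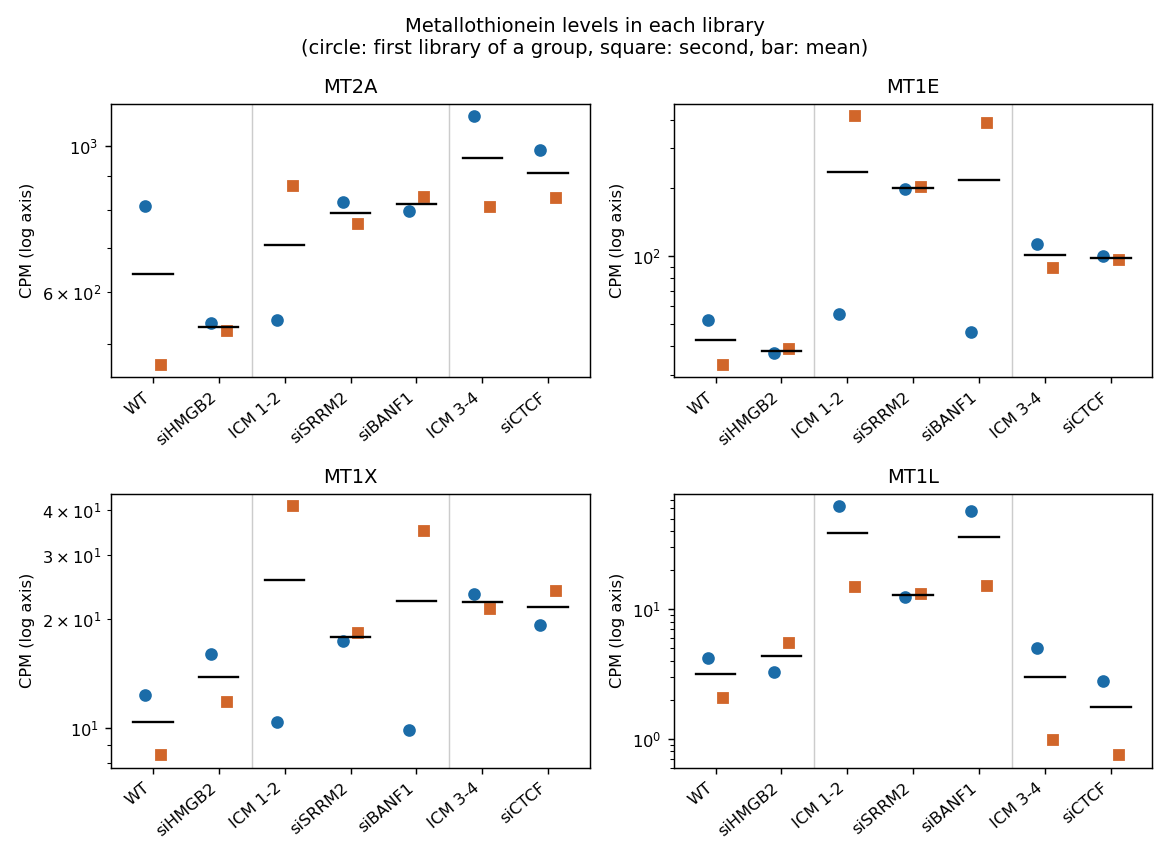
Level of MT2A, MT1E, MT1X and the pseudogene MT1L in each of the 14 libraries, in CPM on log axes, with a bar at the mean of each group and grey lines between the untreated cells, the first treated set and the second. MT1E reached 417 CPM in ICM 2 and 388 CPM in siBANF1 2 against 55.7 and 46.1 CPM in their partner libraries, and MT1L showed the opposite order.

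The make-up of the metallothionein pool moved with these levels. MT1E gave 6.23% ± 0.404 of the 7 genes' counts in WT and 6.52% ± 0.313 in siHMGB2, against 9.37% ± 0.430 in ICM 3-4 and 9.59% ± 0.740 in siCTCF (mean ± SD, n = 2). In the siSRRM2-labelled pair its share was 19.9% ± 1.02. The ICM 1-2 pair held 9.13% (95% Wilson interval 8.81 to 9.46) and 31.4% (31.1 to 31.8), and the pair labelled siBANF1 held 5.41% (5.17 to 5.65) and 30.8% (30.5 to 31.2). These intervals cover counting error only. MT2A outnumbered MT1E by 15.6 and 14.1 counts to 1 in WT and by 2.08 to 1 in ICM 2 and 2.15 to 1 in siBANF1 2.

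**Figure D3:**
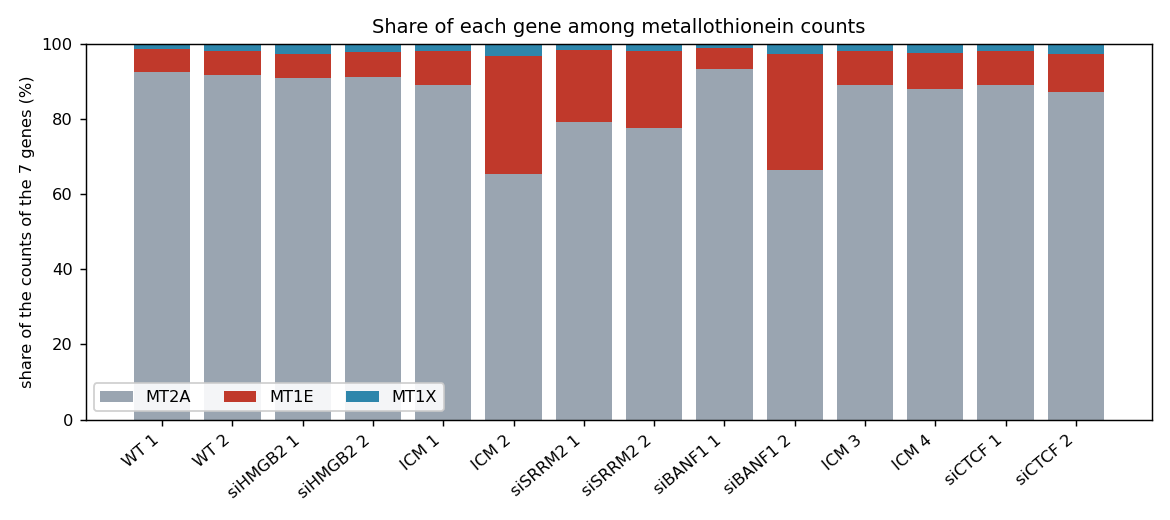
Share of MT2A (grey), MT1E (red) and MT1X (blue) among the counts of the 7 metallothionein genes, in percent, for each library. The red part is 31.4% in ICM 2 and 30.8% in siBANF1 2 and lies between 5.41% and 6.75% in the untreated libraries and siBANF1 1.

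ICM-treated senescent cells were compared with untreated cells separately for each ICM pair. In ICM 3-4 against WT, MT1E and MT1X rose. MT1E went from 42.6 ± 13.5 to 100.9 ± 17.1 CPM, or 1.06 as a log2 fold change (SE 0.27, adjusted p = 0.0187 by edgeR's quasi-likelihood test), and MT1X from 10.4 ± 2.79 to 22.3 ± 1.51 CPM, or 0.92 (SE 0.26, edgeR adjusted p = 0.0277). The libraries of the 2 groups did not overlap for either gene, and how many of all genes do the same was not counted. MT2A gave 0.40 (95% interval -0.39 to 1.19, edgeR adjusted p = 0.325) and MT1G 0.33 (-1.11 to 1.77, adjusted p = 0.657), with overlapping groups. MT1A, MT1F and MT1M had too few counts to be tested here or in any comparison. Thus 2 of the 4 members tested were called, where 55.2% of the 15677 genes tested were called in either direction and 27.8% were called higher. The median log2 fold change of the 4 was 0.66 against 0.01 for all genes, and 80.3% and 77.4% of genes had a lower log2 fold change than MT1E and MT1X. Without WT 2 the values were 0.74 for MT1E and 0.63 for MT1X, neither called, and without WT 1 MT1X was at 1.21, not called. Both of these fits called fewer of all genes than the main fit. MT2A was at 0.66 without ICM 4, a call in a fit that called more of all genes than the main fit. In a single fit of all 14 libraries, which called 30.3% of genes, MT1E and MT1X were not called (log2 fold changes 1.01 and 0.86, adjusted p = 0.383 and 0.275). With scaling to total counts the median of all genes moved to 0.20, and MT1E (1.24) and MT1X (1.10) kept their direction and their call.

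Cell markers moved in the same comparison of ICM 3-4 with WT. Of the 12 fibroblast markers, 10 were called lower and 0 higher, and their summed level was 24911 and 32795 CPM in WT against 5057 and 2491 CPM in ICM 3-4, with all 12 at 1 CPM or more in each library. The summed endothelial list went from 75.1 and 89.7 CPM to 16.2 and 2.96 CPM, mostly TEK, and the summed blood list from 40.6 and 40.1 CPM to 96.1 and 105 CPM, nearly all of it CD68, a lysosomal protein that is not limited to macrophages. The part of these shifts in the metallothionein values was not tested, and in bulk RNA fewer cells with high levels and less RNA per cell cannot be told apart.

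In ICM 1-2 against WT no member was called by edgeR, and neither was any other gene, so that the share called was 0 of 16617 genes, with 3664 at an unadjusted p under 0.05. MT1E gave a log2 fold change of 2.34 with a wide interval (SE 0.92, -0.06 to 4.74, edgeR adjusted p = 0.235), MT1X 1.19 (adjusted p = 0.355), MT2A 0.07 (adjusted p = 0.943) and MT1G -2.84 on at most 20 counts per library (adjusted p = 0.279). ICM 1 was 1.07 times WT 1 for MT1E, and ICM 2 was 12.6 times WT 2. Without ICM 1 MT1E was at 3.12 and MT1X at 1.81, both called, in a fit that called 62.1% of genes and takes the lone library to vary like WT. Without ICM 2 MT1E was at 0.44 with an adjusted p of 0.0725, and MT1G, with 0 counts in ICM 1, was called lower (adjusted p = 0.0267), in a fit that called 8389 of 17519 genes. DESeq2, which called 1917 or 11.5% of the genes, called MT1E alone of the members (2.37, adjusted p = 0.0322). ICM 1, where MT1E was low, also had more reads in no feature (16.3% against 4.73% in ICM 2), more small RNA counts (6.06% against 3.19%), a higher sum of fibroblast markers (20150 against 5125 CPM, all 12 detected in both) and a higher sum of endothelial markers (244 against 68.4 CPM, mostly TEK). The part of these in the difference was not tested.

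The 2 ICM pairs were also set against each other. No member of the 4 tested was called, where 0.84% of 16195 genes were. MT1E was at -1.29 (95% interval -3.16 to 0.57, edgeR adjusted p = 0.352), MT1X at -0.29 (adjusted p = 0.81) and MT2A at 0.31 (adjusted p = 0.735). MT1G was at 3.14 (SE 1.15, adjusted p = 0.156), from 0 and 6 counts in ICM 1-2 and 12 and 16 counts in ICM 3-4. Without ICM 1 MT1E was called lower (-2.085, adjusted p = 0.0102, with 1128 of 16016 genes called), and without ICM 2 its value was 0.60, the other sign. Scaling to total counts moved the median of all genes from -0.08 to 0.07, and no member was called then either.

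HMGB2 knockdown was compared with WT in untreated cells. No member passed the test, where 10.9% of 15338 genes did. MT2A was at -0.20 (95% interval -0.64 to 0.24, edgeR adjusted p = 0.622), MT1E at -0.10 (-0.48 to 0.29, adjusted p = 0.808) and MT1G at 0.17 (adjusted p = 0.925). MT1X was the member with the largest value, 13.9 ± 2.96 against 10.4 ± 2.79 CPM, or 0.48 (SE 0.20, 0.04 to 0.92, adjusted p = 0.166), with overlapping libraries. Without WT 1 MT1X was called (0.78, edgeR adjusted p = 0.0405, with 815 of 16202 genes called), and MT1E and MT2A turned positive (0.27 and 0.26). The summed fibroblast markers stood at 37180 and 44301 CPM in siHMGB2 against 24911 and 32795 CPM in WT, with 4 of 12 called higher and 3 lower, and their part in these values was not tested.

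**Figure D4:**
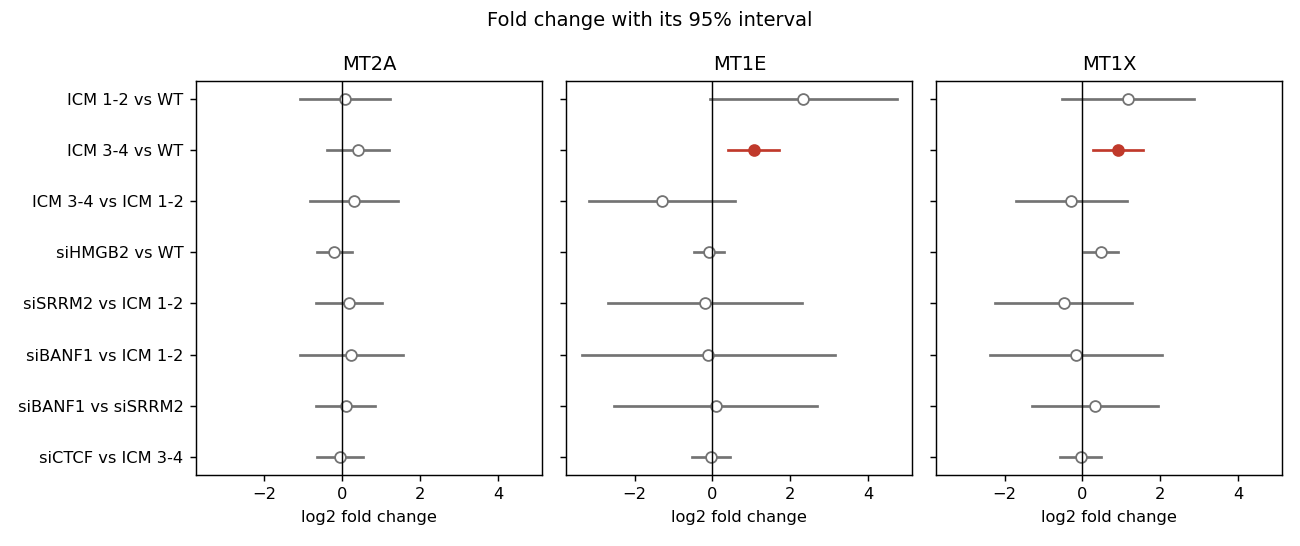
Log2 fold change of MT2A, MT1E and MT1X in the 8 comparisons, with bars for the 95% interval of the edgeR fit and filled red points for a call at an adjusted p under 0.05. The 2 red points are MT1E (1.06) and MT1X (0.92) in ICM 3-4 against WT, and the widest intervals belong to MT1E in comparisons that hold ICM 1-2 or the libraries labelled siBANF1.

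On the ICM background, the libraries labelled siSRRM2 and siBANF1 were compared with ICM 1-2. The edgeR test called 0 of 16828 and 0 of 17616 genes, with 1488 and 24 at an unadjusted p under 0.05 and 199 and 0 called by DESeq2, so no member was called. In the siSRRM2-labelled pair, MT1E gave -0.19 (95% interval -2.68 to 2.31), MT1X -0.48 (-2.25 to 1.28) and MT2A 0.17 (-0.68 to 1.01), with edgeR adjusted p from 0.833 to 0.958. Both libraries labelled siSRRM2 lay between the 2 ICM libraries for MT1E, MT1X and MT2A. Leaving out ICM 1 gave MT1E at -0.99, and leaving out ICM 2 gave 1.795, both called in fits that called 2 and 3 members and 10386 of 17578 and 12350 of 18219 genes. In the siBANF1-labelled pair, MT1E gave -0.10 (-3.35 to 3.14), MT1X -0.17 (-2.38 to 2.04) and MT2A 0.23 (-1.09 to 1.55), each with an edgeR adjusted p of 1. Libraries of the same number lay close together there, since siBANF1 1 was 0.828 times ICM 1 for MT1E and siBANF1 2 was 0.931 times ICM 2. For MT1X these ratios were 0.954 and 0.858, against 3.93-fold between ICM 1 and ICM 2. The labels do not say that equal numbers mark a shared culture. Between the libraries labelled siBANF1 and siSRRM2, edgeR called 0 of 16760 genes (1693 at an unadjusted p under 0.05, and 385 by DESeq2), and MT1E gave 0.08 (-2.52 to 2.69), MT1X 0.32 (-1.31 to 1.95) and MT2A 0.09 (-0.67 to 0.85), with adjusted p from 0.851 to 0.981. Leaving out siBANF1 2 gave -2.04 for MT1E and leaving out siBANF1 1 gave 0.91, both called. The order of these 2 labelled pairs for MT1E thus turned with the library left out, in fits that called 12796 of 18077 and 9891 of 17632 genes.

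The siCTCF libraries against ICM 3-4 gave narrower intervals for MT2A, MT1E and MT1X than the other knockdown comparisons on the ICM background. MT2A gave -0.06 (95% interval -0.65 to 0.52), MT1E -0.03 (-0.52 to 0.47), MT1X -0.04 (-0.57 to 0.48) and MT1G 0.42 (-0.84 to 1.68), each with an edgeR adjusted p of 1. The test called 0 of 14704 genes, with 18 at an unadjusted p under 0.05 and 0 called by DESeq2. CTCF itself was at 71.5 CPM in siCTCF 1 and 23.0 CPM in siCTCF 2, where MT1E stood at 100.3 and 96.6 CPM.

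MT1L, the pseudogene between MT2A and MT1E, was high where MT1E was low within the ICM 1-2 and siBANF1 pairs. It reached 61.9 CPM in ICM 1 and 56.7 CPM in siBANF1 1, where it exceeded MT1E (111% and 123% of its count), and stood at 14.8 CPM in ICM 2, 15.1 CPM in siBANF1 2 and 12.4 and 13.2 CPM in the siSRRM2-labelled pair. In WT it was at 4.23 and 2.06 CPM, in siHMGB2 at 3.26 and 5.47 CPM, in ICM 3-4 at 5.02 and 0.985 CPM and in siCTCF at 2.78 and 0.747 CPM. All 6 libraries of the first treated set were thus above the other 8. The number of all genes that do the same was not counted, and the part of the library differences was not tested. In ICM 1-2 against WT the log2 fold change was 3.63 (SE 0.92, edgeR adjusted p = 0.126), not called in the main edgeR fit. MT1L was called by DESeq2 (adjusted p = 0.000101), which called 11.5% of the genes. It was called by edgeR in the single fit of 14 libraries (3.52, adjusted p = 0.0478), with 2582 of 19126 genes. Without the filter on low counts edgeR called it as well (3.62, adjusted p = 4.65e-11), with 2658 of 29943 genes. With 1 library left out the value was 4.21 without WT 1, 2.07 without ICM 1, 4.36 without ICM 2 and 3.16 without WT 2, where it was not called. Such fits take the lone library to vary like the other group. Of the 50-base stretches of MT1L, 4.42% occur in another gene.

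Zinc handling beyond the metallothioneins was followed in a list of 26 genes, of which 16 could be tested in ICM 3-4 against WT, with 3 higher and 2 lower. MTF1, the metal-sensing activator of the family, rose from 39.4 and 37.2 CPM in WT to 106 and 129 CPM in ICM 3-4, or 1.43 on the log2 scale (SE 0.16, edgeR adjusted p = 0.00131). SLC30A1, the zinc exporter and a known MTF1 target, rose from 64.5 and 69.8 CPM to 107 and 212 CPM, or 1.05 (SE 0.30, edgeR adjusted p = 0.0285). The third was SLC39A14, a zinc importer (0.74, adjusted p = 0.0197). Lower were the importers SLC39A10 (-1.48, adjusted p = 0.00874) and SLC39A6 (-0.57, adjusted p = 0.0339). SLC39A14 and SLC39A6 were named in this comparison after their values were seen. The 5 called of 16 compare with 55.2% of all genes, and the list's median was 0.22 against 0.01. Fewer of all genes were called without WT 1, without WT 2 and in the single fit of 14 libraries (30.3% in the single fit). More of them were called without ICM 3 or without ICM 4. In a single fit of 14 libraries SLC30A1 was not called (0.99, adjusted p = 0.34), and it was not called without WT 1 (adjusted p = 0.0834) or WT 2 (0.0736). Leaving out ICM 4 brought it to 0.54 (adjusted p = 0.00344). The count of 5 was 2 without WT 1 or without WT 2 and in the single fit, 8 without ICM 3, and 9 without ICM 4 or with total-count scaling.

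SLC30A1 also split the first treated set as MT1E did. The split was not particular to these genes. Over 13123 genes, the difference of the second library from the first correlated at 0.856 between ICM 1-2 and the siBANF1-labelled pair. It stood at 34.0 and 172 CPM in ICM 1-2 and, likewise split, at 20.1 and 140 CPM in the siBANF1-labelled pair, with 114 and 113 CPM in the pair labelled siSRRM2. MTF1 was at 26.5 and 57.8 CPM in ICM 1-2, at 48.3 and 46.5 CPM in the siBANF1-labelled pair and at 38.0 and 34.8 CPM in the pair labelled siSRRM2. Against WT, ICM 1-2 gave SLC30A1 at 0.49 (edgeR adjusted p = 0.714). It was called higher without ICM 1 (1.19, adjusted p = 4.78e-06) and lower without ICM 2 (-0.93, adjusted p = 5.01e-05). In siCTCF, MTF1 was at 109 and 113 CPM and SLC30A1 at 126 and 217 CPM, overlapping with ICM 3-4 for both. No zinc gene was called in the comparisons within the ICM background.

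In siHMGB2 against WT, 3 of the 16 zinc genes tested were called, 2 higher and 1 lower, where 6.14% of all genes were higher and 4.74% lower. The single fit of 14 libraries called 0 of 19126 genes in this comparison. SLC30A1 fell from 67.2 ± 3.74 to 47.4 ± 1.31 CPM (-0.44, SE 0.12, edgeR adjusted p = 0.0362). SLC39A6 rose by 0.55 (SE 0.14, adjusted p = 0.0245), and so did SLC39A13, a zinc transporter of internal membranes named after its value was seen (0.53, adjusted p = 0.027). MTF1 was at 28.8 and 29.1 CPM, below both WT libraries, with a log2 fold change of -0.34 that was not called (adjusted p = 0.121). In the single fit of 14 libraries no zinc gene was called in this comparison, nor without WT 1 or WT 2, and SLC30A1 was not called either without WT 1, WT 2 or siHMGB2 2 (adjusted p = 0.175, 0.316 and 0.0916).

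Copper, the other metal that metallothioneins bind, was followed through 14 genes, all tested. In ICM 3-4 against WT, 5 were higher and 3 lower. SLC31A2, a copper transporter of internal membranes, rose most, from 8.26 ± 1.75 to 39.9 ± 0.648 CPM (2.08, SE 0.23, edgeR adjusted p = 0.00118), and SLC31A1, the copper importer of the plasma membrane, fell most, from 224 and 203 CPM to 154 and 132 CPM (-0.76, SE 0.17, adjusted p = 0.0126). The other 4 that rose were COX11, SCO1 and SCO2, which deliver copper to cytochrome oxidase, and SOD1, the copper and zinc superoxide dismutase (0.68 to 1.00). The other 2 that fell were ATP7A, a copper pump, and CCS, the chaperone of SOD1. Those 6 were named after their values were seen. Fewer of all genes were called without WT 1, without WT 2 and in the single fit of 14 libraries (30.3% in the single fit). In the main fit the 8 called of 14 stand beside 55.2% of all genes, and the list's median was 0.21. Without WT 2 the count was 1, without WT 1 it was 2 and in the single fit it was 1. In siHMGB2 against WT none of the 14 was called by edgeR at the main setting, while DESeq2 called 1.

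Of the 16 tested stress genes that respond to heavy metals, oxidants or misfolded protein, 11 rose in ICM 3-4, 0 fell and 5 were not called, beside 27.8% of all genes higher. Over all genes and both directions, 55.2% were called in the main fit and 30.3% in the single fit of 14 libraries, and fewer without WT 2. The median log2 fold change of the 16 stress genes was 1.22 against 0.01, and 2 of them were negative. HMOX1, heme oxygenase, rose from 51.9 and 54.5 CPM in WT to 2792 and 4048 CPM, or 5.82 on the log2 scale (SE 0.27, edgeR adjusted p = 0.000321), against 1.06 for MT1E in the same libraries. Others that rose, named after their values were seen, were SRXN1, sulfiredoxin (2.77), NQO1, a quinone reductase (1.01), GCLM and GCLC, the subunits of the enzyme that starts glutathione synthesis (1.47 and 1.27), and the chaperone genes HSPB8 (3.50), BAG3 (1.98) and DNAJB1 (1.72). Without WT 2 the count was 7 and in the single fit of 14 libraries 8, and NQO1 was not called in either. In ICM 1-2 HMOX1 was at 35.0 and 265 CPM, in the siBANF1-labelled pair at 38.0 and 333 CPM and in the pair labelled siSRRM2 at 133 and 139 CPM, so that, as for MT1E, ICM 2 and siBANF1 2 were the highest of these 6 libraries and ICM 1 and siBANF1 1 the lowest. In siCTCF it was at 2623 and 4025 CPM.

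The 2 treated sets were also set side by side for single genes. HMOX1, NQO1 and MTF1 were higher in all 4 libraries of the second set than in any of the first. MT1E had no single order, as it was higher in 4 libraries of the first set than in any of the second. In ICM 1 and siBANF1 1, at 55.7 and 46.1 CPM, MT1E was lower than in any of the second. The number of all genes that separate the 2 sets was not counted. For HMOX1 the difference of ICM 3-4 from ICM 1-2 was 4.44 with an edgeR adjusted p of 0.0708, and for MTF1 1.355 with an adjusted p of 0.13, neither called.

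**Figure D5:**
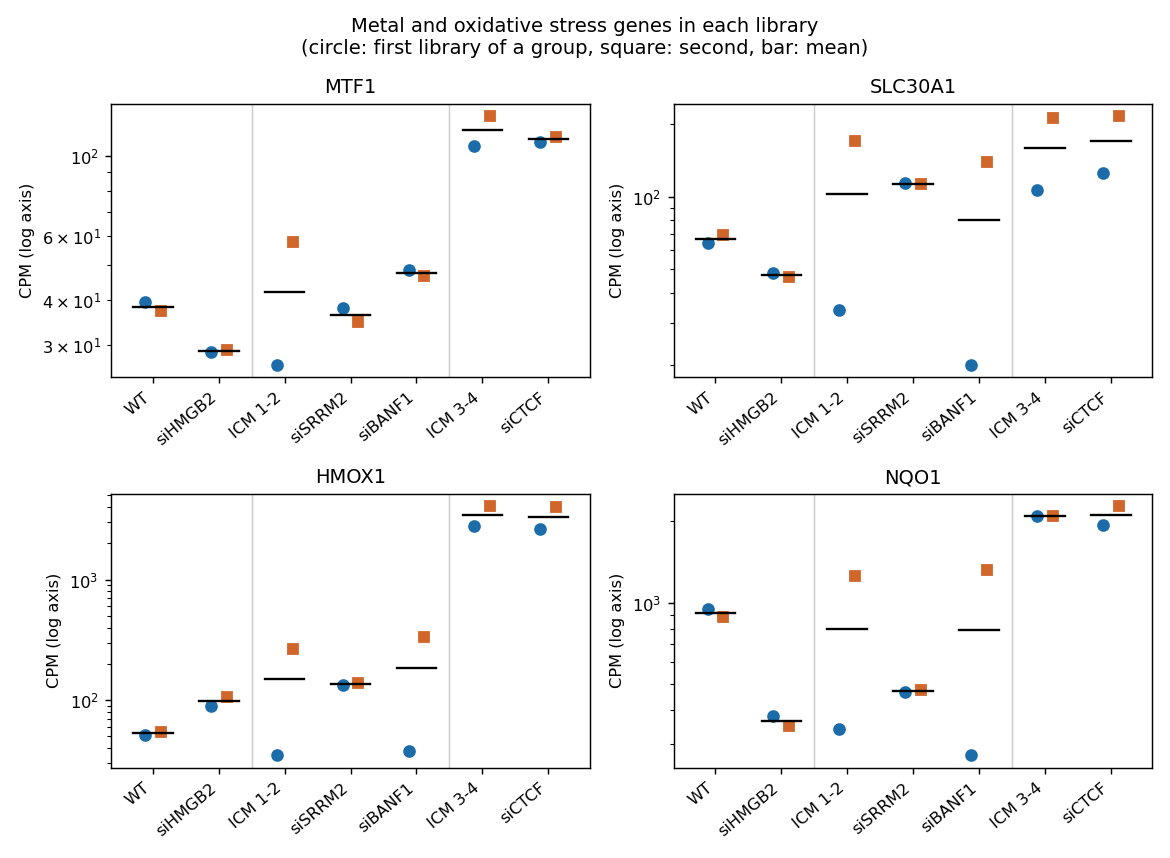
Level of MTF1, SLC30A1, HMOX1 and NQO1 in each of the 14 libraries, in CPM on log axes, with a bar at the mean of each group. HMOX1 lies at 2623 CPM or more in the 4 libraries of ICM 3-4 and siCTCF and at 333 CPM or less in the other 10.

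In siHMGB2 against WT, 8 of the 16 stress genes tested were called, 3 higher and 5 lower, beside 6.14% and 4.74% of all genes. HMOX1 rose from 53.2 ± 1.81 to 98.2 ± 12.4 CPM (0.95, SE 0.13, edgeR adjusted p = 0.000503), and HSPB1 and CRYAB, small heat shock proteins, rose as well (0.81 and 0.93). NQO1 fell from 915 ± 41.0 to 365 ± 22.3 CPM (-1.26, SE 0.14, adjusted p = 0.000112), and SRXN1, TXNRD1, SLC7A11 and GCLM fell by 0.59 to 0.74 on the log2 scale. HSPB1, CRYAB and the last 4 were named after their values were seen. None was called in the single fit of 14 libraries, where HMOX1 gave 0.94 with an adjusted p of 1. That fit called 0 of 19126 genes in this comparison. The metallothioneins, in the same libraries, had no call.

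Glucocorticoid receptor targets, listed with the receptor gene NR3C1 itself, were followed because MT2A is known to respond to the hormone. In ICM 3-4 against WT, 11 of 13 tested were called, 3 higher and 8 lower, beside 27.8% and 27.3% of all genes, with a median of -1.001 against 0.01. PER1, a clock gene, rose most (16.7 ± 0.584 to 50.5 ± 18.2 CPM, 1.41, SE 0.26, edgeR adjusted p = 0.00618), and CEBPD, a transcription factor, fell most (272 ± 16.4 to 5.06 ± 3.43 CPM, -5.92, SE 0.53, adjusted p = 0.000725). MT2A, with 639 ± 245 and 958 ± 214 CPM, was not called. In siHMGB2 against WT, 5 of 13 were called, 3 higher and 2 lower, beside 6.14% and 4.74% of all genes. The single fit of 14 libraries called 0 of 19126 genes there. ANGPTL4, a secreted lipase inhibitor, was at 1.22 (SE 0.17, edgeR adjusted p = 0.000402). PDK4, a kinase of the pyruvate dehydrogenase complex, was at -1.25 (SE 0.29, edgeR adjusted p = 0.0117). The count of 5 was 3 without WT 1, 2 without siHMGB2 2 and 0 in the single fit. The other 3, named after their values were seen, were ERRFI1 and CRISPLD2 (higher) and GLUL (lower). In the remaining comparisons no gene of the zinc, copper, stress or glucocorticoid lists was called by edgeR.

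The genes with a profile most like the summed metallothioneins over the 14 libraries were RCL1, EIF2B5, DAP3, MAPKAPK5 and ACTR8. Likeness was the root mean square distance between centred log2 values (CPM plus 1) over 9198 genes, each averaging 10 CPM or more. The 5 distances were 0.155, 0.182, 0.183, 0.185 and 0.191, with a median of 0.567 over all genes, and the summed metallothioneins themselves varied by 0.438 about their mean. MT2A gave 65.5% to 93.4% of the members' counts in a library, so the summed profile is largely that of MT2A. The libraries fall into groups and differ in depth and make-up, so this is a description.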

How the data were processed

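The authors deposited, per library, read counts per gene symbol, whole numbers that were not normalized. The submitters' processing notes list STAR 2.7.3a, HTSeq 0.12.4, DESeq2 1.36.0 and the hg38 build. The annotation release, the counting mode and the strand setting are not given in the sources used here, so reads of overlapping genes on opposite strands may be mixed, and reads that match several places, or several metallothioneins, may be missing. The share of reads matching several places or several genes differed between the libraries, as given above. Its part in the metallothionein values was not tested. Total RNA was purified with an on-column DNase step and made into TruSeq libraries sequenced from both ends, per the labels' protocols.

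From the deposited counts, the rows of reads given to no gene were left out (12.75% to 41.78% of a library) and CPM were computed on the remaining total. Each comparison was fitted to its own 4 libraries with edgeR 4.0.16 in R 4.3.3 (TMM scaling, filterByExpr, quasi-likelihood test, Benjamini-Hochberg adjustment over all genes tested, call at an adjusted p under 0.05), because the spread differed widely between groups. DESeq2 1.42.0, other scalings, no filter, a single fit of all libraries, protein-coding genes only, a stricter threshold, a replicate block and leaving out each library were alternatives. The fit was tested on simulated counts. With 2 libraries per group, and no label saying that they came from separate cultures, p-values measure only the spread between these libraries, which may be technical. Gene models are from GENCODE and RefSeq on GRCh38, figures from matplotlib 3.10.9. Named were all members, MTF1 and SLC30A1, the called gene with the highest and the lowest change in each other list (at least 10 CPM, no overlap), and the 5 genes most like the summed members. The members and lists were chosen with earlier results of these data known.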

Additional observations from a re-analysis of the deposited data

How the results depend on the processing

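Direction and call of a log2 fold change were the same as in the main analysis in 807 values under the alternatives, reversed in 35, without a call in 112 and with a new call in 25. The cause of these changes was not tested, beyond the loss of a library where 1 was left out. The number of members called in ICM 1-2 against WT was 0 in the main fit, 1 without the filter on low counts, 1 with DESeq2 and 0 to 2 when 1 library was left out. In ICM 3-4 against WT it was 2, then 0 in the single fit of 14 libraries, 0 at an adjusted p under 0.01 and 0 to 3 when 1 library was left out. Leaving out 1 library gave 0 to 1 in ICM 3-4 against ICM 1-2, 0 to 1 in siHMGB2 against WT, 0 to 3 for the libraries labelled siSRRM2 against ICM 1-2 and 0 to 2 for those labelled siBANF1 against siSRRM2. A group left with 1 library was assumed to vary like the other.

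Signs that turned belonged to uncalled values near 0 or to comparisons with ICM 1-2 or the libraries labelled siBANF1. In ICM 1-2 against WT the single fit gave MT2A at -0.0063 and MTF1 at -0.023. With 1 library left out, ICM 1-2 against WT gave MT2A at -0.30 to 0.51, SLC30A1 at -0.93 to 1.19 and MTF1 at -0.48 to 0.43. ICM 3-4 against WT gave MT1G at -0.15 to 1.015 and MT1L at -1.95 to 0.55. ICM 3-4 against ICM 1-2 gave MT1E at -2.085 to 0.60 and MT1X at -0.91 to 0.85. HMGB2 knockdown gave MT1E at -0.40 to 0.27, MT1G at -0.37 to 0.89 and MT2A at -0.55 to 0.26. The libraries labelled siSRRM2 gave MT1E at -0.99 to 1.795, MT1X at -1.13 to 0.73 and MT2A at -0.070 to 0.49. Those labelled siBANF1 gave MT1E at -2.26 to 1.87, MT1X at -1.28 to 1.04 and MT2A at -0.023 to 0.53 against ICM 1-2, and MT1E at -2.04 to 0.91 and MT1X at -0.77 to 0.93 against siSRRM2. CTCF knockdown gave MT1E at -0.22 to 0.20, MT1X at -0.16 to 0.063 and MT2A at -0.30 to 0.22.

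With the replicate number as a block the members called in siHMGB2 against WT went from 0 to 1 (MT1X, 0.49, edgeR adjusted p = 0.0347). The calls over all genes there went from 1668 to 2443 of 15338. MT1L in ICM 1-2 against WT was called (3.31, edgeR adjusted p = 0.000935), in a fit that called 1183 of 16617 genes, and MTF1 there was at -0.019. Under the block MT1E was at 0.38 in the libraries labelled siSRRM2 against ICM 1-2. It was at -0.54 in those labelled siBANF1 against siSRRM2. The block changed no other count of members called. The labels do not say what a number marks, and the deviations of same-numbered libraries correlated at 0.856 between ICM 1-2 and siBANF1, 0.2075 between WT and siHMGB2, 0.062 between ICM 1-2 and siSRRM2, 0.0968 between siSRRM2 and siBANF1 and -0.196 between WT and ICM 1-2. In the comparisons with ICM 3-4 no block was fitted, because the labels number that pair 3 and 4, numbers that neither siCTCF, WT nor ICM 1-2 carries. Calls over all genes moved by more than 1.5 times: ICM 1-2 against WT went from 0 to 2582 in the single fit, 2658 without a filter, 1917 with DESeq2 and 1183 with the block, ICM 3-4 against ICM 1-2 from 136 to 3738, 2809 and 2291 (first 3 settings), and siHMGB2 against WT from 1668 to 0 in the single fit, 806 at an adjusted p under 0.01, 815 without WT 1 and 898 without siHMGB2 2. ICM 3-4 against WT went from 8647 to 5257 at an adjusted p under 0.01 and to 4697 without WT 2. ICM 3-4 against ICM 1-2 went to 529 with total-count scaling, to 1 among protein-coding genes and to 6594 without ICM 2. The siSRRM2 pair against ICM 1-2 had 34 calls in the single fit, 34 with the block and 12350 without ICM 2, and the siBANF1 pair against the siSRRM2 pair 52, 61 and, without siBANF1 2, 12796. The siBANF1 pair against ICM 1-2 had at most 11 under any alternative, and siCTCF against ICM 3-4 had 0 in all of them. Total-count scaling called 5142 genes higher and 3627 lower in ICM 3-4 against WT, where the main scaling called 4363 and 4284. Depth was not limiting for MT2A, MT1E and MT1X, with at least 307 counts in each library, and limited MT1A, MT1F, MT1G and MT1M.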

Other observations

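The MT1E profile had its own likest genes, chosen after the values were seen. Over the 14 libraries the nearest were SNHG8, NOG, GAS5, RPL13AP20 and GEMIN6, at root mean square distances of 0.351, 0.362, 0.389, 0.390 and 0.427 with a median of 1.15 over 9198 genes. SNHG8 and GAS5 are host genes of small nucleolar RNAs, and GAS5 ranged from 32.6 to 646 CPM. Small RNA genes took 3.19% to 6.06% of the counts in all 6 libraries of the first treated set and at most 0.0081% in the other 8. Within that set, ICM 1 had the highest small RNA share (6.06%) with MT1E at 55.7 CPM. ICM 2 had the lowest (3.19%) with MT1E at 417 CPM. A link between small RNA share and the MT1E profile was not tested.

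Other protein-coding genes near the metallothionein row were also counted, chosen by position after the values were seen. Within 500000 bases on either side, 12 were in the count table. In ICM 3-4 against WT, 3 of the 9 tested were higher and 5 lower by edgeR, with a median of -0.76. Of all genes, 55.2% were called, 27.8% higher and 27.3% lower. HERPUD1, an endoplasmic reticulum stress gene, was at 1.29 (adjusted p = 0.0115) and BBS2, a ciliary gene, at -2.25 (adjusted p = 0.000825). Whether position has a part in the MT1E and MT1X values was not tested.

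MT3, the metallothionein best known from brain, had 82 counts in ICM 1 (1.68 CPM) and at most 10 in each of the other libraries.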
